A study of Homo sapiens with 12 samples.

Results

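CDK6, FLT3, MEF2C, JMJD1C, AKAP1 and MEX3A are targets of MLL fusions outside the HOX genes, and their expression was followed in SHI-1 cells, an acute myeloid leukemia line that carries MLL-AF6. They were taken as the 6 genes of these names among 14866 genes listed for each library, and all 6 passed the filter on low values, as did 13502 of the genes listed. CDK6, FLT3, MEF2C and JMJD1C were named as known targets, though with earlier results of these data known. AKAP1 and MEX3A were selected on measured values, since their lower level after combined treatment was known. AKAP1 and MEX3A are therefore described without a test wherever DSF+NSM libraries enter the difference, and their single-drug tests against DMSO share the DMSO libraries with that choice. The spread in every main test was estimated from all 12 libraries, those of DSF+NSM among them. The experiment had 4 groups of 3 libraries, each exposed for 16 h. The groups received DMSO as vehicle, 0.3 µM disulfiram with 1 µM copper (DSF), 5 µM niclosamide (NSM), or DSF and NSM together (DSF+NSM). All groups were of the same cell line without any engineered allele, and the sources used here do not say if cells given DMSO or NSM also had copper. The libraries came from 3 independent experiments.

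MLL (KMT2A) is a histone methyltransferase that keeps HOX and other developmental genes active, and its N-terminal part, which the fusions retain, holds a CXXC domain that binds unmethylated CG-rich DNA. In acute leukemia the fusion proteins recruit elongation factors to such promoters and hold the target genes at a high level. Among these targets are a cell cycle kinase (CDK6), a receptor tyrosine kinase (FLT3), a transcription factor (MEF2C), a member of the JmjC histone demethylase family (JMJD1C), an anchoring protein for protein kinase A at mitochondria (AKAP1) and an RNA-binding protein (MEX3A). Disulfiram is a drug against alcohol dependence that binds copper, and niclosamide is an antihelminthic that uncouples mitochondria.

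Because the CXXC domain reads CG dinucleotides, the 250 bases before the start of 3 of the genes are shown, chosen as the 2 genes that were lowest after combined treatment and the gene that rose most after NSM. They come from RefSeq on GRCh38.p14, are written 5′ to 3′ on the strand of the gene, and have each CG in capitals. The windows lie at chr17:57084996-57085245 (plus strand) for AKAP1, chr1:156082466-156082715 (minus strand) for MEX3A and chr10:63465978-63466227 (minus strand) for JMJD1C.
AKAP1: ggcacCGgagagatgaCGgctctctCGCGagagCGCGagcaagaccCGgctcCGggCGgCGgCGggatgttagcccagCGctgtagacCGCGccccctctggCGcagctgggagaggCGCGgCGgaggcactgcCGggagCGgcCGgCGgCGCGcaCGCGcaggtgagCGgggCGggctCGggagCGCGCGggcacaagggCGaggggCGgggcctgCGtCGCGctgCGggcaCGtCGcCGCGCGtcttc
MEX3A: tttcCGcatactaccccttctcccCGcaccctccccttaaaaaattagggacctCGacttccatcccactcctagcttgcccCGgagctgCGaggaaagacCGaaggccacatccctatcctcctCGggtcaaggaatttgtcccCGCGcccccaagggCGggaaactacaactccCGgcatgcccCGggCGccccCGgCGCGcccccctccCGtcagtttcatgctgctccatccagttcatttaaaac
JMJD1C: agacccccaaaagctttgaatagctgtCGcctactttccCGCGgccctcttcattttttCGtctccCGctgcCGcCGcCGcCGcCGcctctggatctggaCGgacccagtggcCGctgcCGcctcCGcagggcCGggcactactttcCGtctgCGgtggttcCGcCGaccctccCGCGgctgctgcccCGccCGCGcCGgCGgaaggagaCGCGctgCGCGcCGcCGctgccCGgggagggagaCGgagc
The motif searched was CG, which reads the same on both strands and cannot overlap itself. The AKAP1 window held 43 CG, the JMJD1C window 34, CDK6 30, MEF2C 28, FLT3 26 and MEX3A 17, against a median of 11 over 35116 such windows. Of all windows, 1.02% had at least as many CG as AKAP1, 6.84% as many as JMJD1C, 12.4% as many as CDK6, 15.9% as many as MEF2C, 19.6% as many as FLT3 and 39% as many as MEX3A. The 2 genes that were lowest after combined treatment thus held the most and the fewest CG of the 6.

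The values are normalized counts as scaled by the authors. Most are not whole read counts divided by 1 factor per library, since 30.4% to 31.0% in each library were whole multiples of 1 step. The sums of the values were 14.0 to 15.3 M for the DMSO and DSF libraries, 16.5 to 17.5 M for NSM and 22.7 to 25.6 M for DSF+NSM, from an estimated 10.2 to 19.0 M reads each. NSM replicate 3 stood apart, with Spearman correlations of 0.939 and 0.950 to the other NSM libraries against 0.980 to 0.996 between all other replicates. The share of normalized counts on genes of ribosomal RNA was 1.11% to 2.84% with DMSO, 3.71% to 4.98% with DSF and 6.35% to 7.96% with DSF+NSM. It was 3.69% and 2.80% in NSM replicates 1 and 2 and 0.643% in NSM replicate 3. All 10 myeloid markers were detected in all 12 libraries, but their summed level ran from 66656 to 75971 with DMSO, 46167 to 52296 with DSF, 31908 to 37926 with NSM and 33971 to 35238 with DSF+NSM. Most of this sum was MPO, at 54162 to 62640 with DMSO and 14454 to 36629 with the drugs. The markers did not move together. With DSF, MPO and LYZ lay below DMSO and CEBPA overlapped with it. CD33, SPI1, ITGAM, CD14, CSF1R, PTPRC and CD68 lay above it, CD14 at 321 to 431 against 54.0 to 64.8. With NSM, CD33, MPO, LYZ, CEBPA and CSF1R lay below DMSO, and SPI1, ITGAM, CD14, PTPRC and CD68 above it. With DSF+NSM, MPO, LYZ, CEBPA and CSF1R lay below DMSO and SPI1, ITGAM, CD14 and CD68 above it, while CD33 and PTPRC overlapped with it. The 3 T lymphoid markers listed summed to 97.2 to 103 with DMSO and 141 to 192 with DSF+NSM. Of these only CD3E was higher, at 69.5 to 76.5 with DMSO and 131 to 181 with DSF+NSM. CD2 was lower, at 18.5 to 25.1 and 4.63 to 7.46, and so was CD3D, at 6.19 to 8.85 and 0 to 5.53. Of 4 epithelial and stromal markers only COL1A1, a collagen chain, was listed, at 19.9 to 24.7 with DMSO and 63.9 to 134 with DSF+NSM. The part of these shifts in the results was not tested. The 3 B lymphoid markers PAX5, CD79A and MS4A1 summed to 194 in NSM replicate 2 and 563 in DSF+NSM replicate 1, against 26.9 to 29.5 in DMSO. Where leaving out one of these 3 libraries ended a call of a named gene or moved its called value by over 1.5 times, the value without it is given beside the result.

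CDK6 (chr7:92604921-92836573, minus strand, GRCh38) drives the passage from G1 to S phase together with D-type cyclins. Its normalized counts were 4612, 5141 and 5218 with DMSO and 4063, 3930 and 4015 with DSF. They were 5502, 5342 and 8335 with NSM, and 3987, 3351 and 4442 with both drugs. All DSF and DSF+NSM libraries lay below all DMSO libraries, and all NSM libraries above them, by far the most in NSM replicate 3. The group means, in the same order, were 4990 ± 330, 4003 ± 67.3, 6393 ± 1683 and 3926 ± 548 (SD, n = 3 each).

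FLT3 (chr13:28003274-28100592, minus strand) is the receptor for FLT3 ligand on early blood progenitors. Its normalized counts were 9.72, 12.1 and 14.7 with DMSO and 16.2, 3.98 and 19.6 with DSF. They were 2.95, 164 and 5.11 with NSM, and 530, 4.63 and 15.5 with both drugs. FLT3 was thus low in 10 of the 12 libraries, at 3 to 18 reads, and high in NSM replicate 2 with 169 reads and in DSF+NSM replicate 1 with 303 reads. The group means and SDs therefore say little about FLT3.

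MEF2C (chr5:88717117-88904257, minus strand) is a MADS-box transcription factor of muscle, myeloid and B cells. Its normalized counts were 1184, 1243 and 1292 with DMSO and 1341, 1165 and 1153 with DSF. They were 1427, 1590 and 2279 with NSM, and 1072, 776 and 990 with both drugs. All 3 NSM libraries exceeded every DMSO and DSF library, all 3 DSF+NSM libraries lay below them, and DMSO and DSF overlapped. The group means, in the same order, were 1240 ± 54.0, 1220 ± 105, 1765 ± 453 and 946 ± 153 (SD, n = 3 each).

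JMJD1C (chr10:63167221-63521850, minus strand) is a chromatin protein with a JmjC domain. Its normalized counts were 682, 745 and 851 with DMSO and 782, 662 and 746 with DSF. They were 1134, 1223 and 2792 with NSM, and 870, 639 and 1052 with both drugs. The 3 NSM libraries lay above all others, and the remaining groups overlapped. The group means, in the same order, were 759 ± 85.3, 730 ± 61.7, 1716 ± 933 and 854 ± 207 (SD, n = 3 each).

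AKAP1 (chr17:57085092-57121346, plus strand) tethers protein kinase A to the outer mitochondrial membrane. Its normalized counts were 838, 839 and 922 with DMSO and 667, 610 and 731 with DSF. They were 276, 355 and 351 with NSM, and 172, 87.0 and 107 with both drugs. The 4 groups did not overlap and ran down in this order, with means of 866 ± 48.4, 669 ± 60.5, 327 ± 44.1 and 122 ± 44.5 (SD, n = 3 each).

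MEX3A (chr1:156072013-156082465, minus strand) belongs to a family of KH-domain RNA-binding proteins that also carry a RING finger. Its normalized counts were 55.7, 68.8 and 75.5 with DMSO and 44.0, 31.8 and 38.2 with DSF. They were 11.8, 22.3 and 14.1 with NSM, and 15.8, 21.6 and 2.22 with both drugs. DMSO, DSF and NSM did not overlap, while NSM and DSF+NSM did, with means of 66.6 ± 10.1, 38.0 ± 6.06, 16.0 ± 5.52 and 13.2 ± 9.95 (SD, n = 3 each). The lowest value, in DSF+NSM replicate 3, stood for 1 read.

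**Figure D1:**
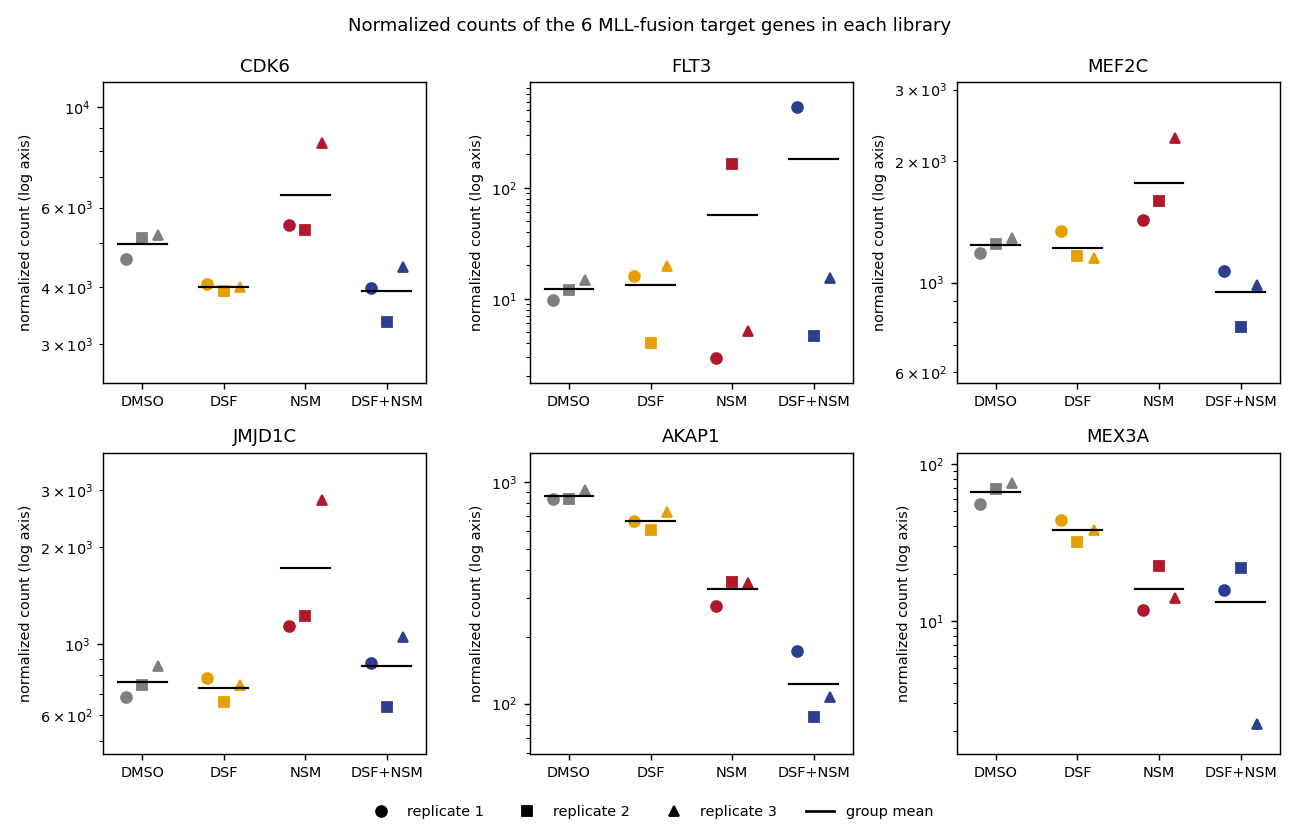
Normalized counts of the 6 genes in the 12 libraries (log axes, 1 panel per gene), with a symbol per replicate and a line at the group mean. AKAP1 steps down from 838 to 922 in DMSO to 87.0 to 172 in DSF+NSM, JMJD1C is highest in the 3 NSM libraries, and FLT3 is high in 2 libraries.

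Per kilobase of the canonical transcript, the mean levels in DMSO cells ran from CDK6 at 428 normalized counts per kb through AKAP1 at 222, MEF2C at 170, JMJD1C at 86.7 and MEX3A at 10.1 to FLT3 at 3.18. In DSF+NSM the level per kb of AKAP1 was 31.2, below JMJD1C at 97.5 and MEF2C at 130, whereas CDK6 remained the highest at 337. FLT3 and MEX3A held whole read numbers in all 12 libraries, and the other 4 genes in none, so their reads could not be recovered. On the opposite strand, MEF2C shares 469 exonic bases with MEF2C-AS1 and 208 with MEF2C-AS2, JMJD1C 483 with JMJD1C-AS1, CDK6 86 with CDK6-AS1 and AKAP1 116 with ENSG00000263089. Whether strand was used in counting is not stated, so such reads cannot be told apart, but JMJD1C-AS1 and MEF2C-AS1 were listed at no more than 40.2 and 18.0 in any library.

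To ask what each drug did alone, DSF and NSM libraries were compared with DMSO on log2(normalized count + 1), and a gene was called at a limma adjusted p under 0.05 over all genes tested. After DSF none of the 6 genes was called, and none had an unadjusted p under 0.05, whereas 11.9% of all genes tested were called higher and 5.95% lower. The log2 fold changes were −0.32 for CDK6 (SE 0.16, adjusted p = 0.206), −0.37 for AKAP1 (SE 0.22, adjusted p = 0.258) and −0.80 for MEX3A (SE 0.57, adjusted p = 0.364), all without overlap between groups. MEF2C and JMJD1C were at −0.03 and −0.05, with groups that overlapped. The share of all genes whose groups do not overlap was not counted, so overlap or its absence is a description only, here and elsewhere. These 0 calls depended on the estimate of spread, which the main test shares over all groups. With DMSO and DSF libraries alone in the fit, CDK6 (adjusted p = 0.000668), AKAP1 (adjusted p = 0.00120) and MEX3A (adjusted p = 0.00375) were called lower, and without NSM replicate 3 CDK6 was (adjusted p = 0.0160). In these fits 7289 and 5551 of the 13502 genes tested were called, against 2405 in the main test. AKAP1 and MEX3A were chosen on values that include these DMSO libraries.

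After NSM 4 of the 6 genes were called, 2 in each direction, beside 25.4% of all genes called higher and 23.7% lower. The 2 called lower, AKAP1 and MEX3A, were chosen for their difference from these same DMSO libraries, so their tests are not independent of that choice. Of the other 4 genes, 2 were called, both higher. AKAP1 fell by 1.41 on the log2 scale (SE 0.22, adjusted p = 0.000215) and MEX3A fell by 2.03 (SE 0.57, adjusted p = 0.0110). JMJD1C rose by 1.05 (SE 0.29, adjusted p = 0.00970) and MEF2C by 0.48 (SE 0.18, adjusted p = 0.0384). CDK6 (log2 fold change 0.33, adjusted p = 0.116) and FLT3 (0.28, SE 1.55, adjusted p = 0.895) were not called. Without NSM replicate 3 the JMJD1C difference was 0.64 (adjusted p = 0.00391) and the CDK6 difference 0.12. MEF2C was not called without NSM replicate 3 (0.28, adjusted p = 0.0677), without DMSO replicate 1 (0.45, 0.107), 2 (0.48, 0.0868) or 3 (0.51, 0.0706), or without DSF replicate 2 (0.48, 0.0529) or 3 (0.48, 0.0518). Without NSM replicate 2 and DSF+NSM replicate 1, 3 of the 6 genes were called, MEF2C being lost (0.54, adjusted p = 0.0515). With DMSO and NSM libraries alone in the fit, JMJD1C (adjusted p = 0.0554) and MEF2C (adjusted p = 0.0987) were not called. With every library scaled to the same sum, MEF2C was at 0.21 (adjusted p = 0.357).

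After combined treatment AKAP1 and MEX3A had the lowest values relative to DMSO, at log2 fold changes of −2.87 (SE 0.22) and −2.65 (SE 0.57), which are descriptions since both were chosen for them. None of the other 4 genes was called against DMSO, beside 28.3% of all genes called higher and 24.5% lower, and 1 of the 4 had an unadjusted p under 0.05. The log2 fold changes were −0.35 for CDK6 (SE 0.16, adjusted p = 0.0886), −0.40 for MEF2C (SE 0.18, adjusted p = 0.0722) and 0.15 for JMJD1C (SE 0.29, adjusted p = 0.700). CDK6 and MEF2C did not overlap with DMSO, and both were called lower without NSM replicate 3 (adjusted p = 0.00429 and 0.00554). In that fit 9137 of the 13502 genes tested were called, against 7125 in the main test. The JMJD1C value changed sign without DSF+NSM replicate 3 (−0.02). Without DSF+NSM replicate 3, which held 1 read, the MEX3A value was −1.79.

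**Figure D2:**
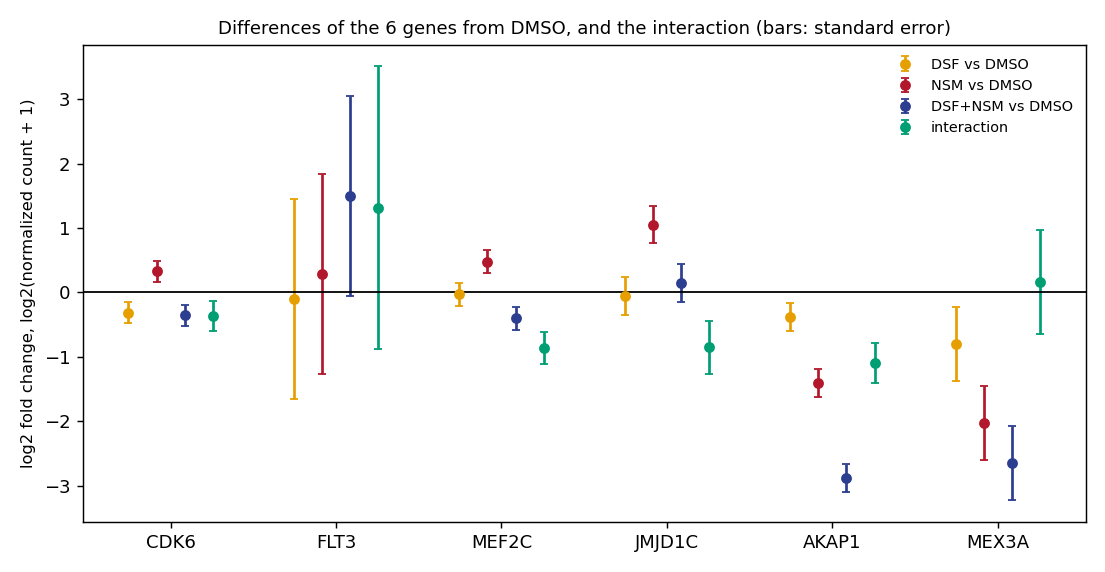
Log2 fold changes of the 6 genes against DMSO after DSF, NSM and DSF+NSM, and the interaction, the combined change less what both drugs gave alone. Points are fitted values and bars standard errors. AKAP1 and MEX3A lie below 0 after all 3 treatments, JMJD1C and MEF2C lie above 0 after NSM, and the bars of FLT3 are the widest.

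CDK6, MEF2C and JMJD1C were lower with both drugs than with NSM alone. These were 3 of the 4 genes tested against NSM, none being called higher, beside 20.3% of all genes called higher and 18.3% lower. CDK6 fell by 0.68 (SE 0.16, adjusted p = 0.00624), MEF2C by 0.88 (SE 0.18, adjusted p = 0.00201) and JMJD1C by 0.91 (SE 0.29, adjusted p = 0.0267). Without NSM replicate 3 the differences were −0.48, −0.68 and −0.49 and all 3 were called (adjusted p = 0.00191, 0.000418 and 0.0230). JMJD1C was not called without DSF+NSM replicate 1 (−0.94, adjusted p = 0.0621) or 2 (−0.71, adjusted p = 0.116). With DSF+NSM and NSM libraries alone in the fit, MEF2C alone was called, CDK6 (adjusted p = 0.0666) and JMJD1C (adjusted p = 0.120) being lost. AKAP1 was lower than in NSM by a log2 difference of −1.47 and MEX3A by −0.63, without a test. The MEX3A ranges overlapped, and its sign turned without DSF+NSM replicate 3 (0.24).

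Against DSF, 0 of the 4 genes tested were called after DSF+NSM and none had an unadjusted p under 0.05, beside 21.7% of all genes called higher and 21.4% lower. CDK6 differed from DSF by −0.04 (SE 0.16, adjusted p = 0.872) and JMJD1C by 0.20 (SE 0.29, adjusted p = 0.611). MEF2C was at −0.38 (SE 0.18, adjusted p = 0.105), with all 3 DSF+NSM libraries below all DSF libraries, and was called without NSM replicate 3 (adjusted p = 0.00985). In that fit 8114 of the 13502 genes tested were called, against 5818 in the main test. AKAP1 and MEX3A were at −2.50 and −1.86, without a test. The MEX3A value was −0.99 without DSF+NSM replicate 3.

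The interaction asks whether the combined change differed from the sum of both single-drug changes. MEF2C was the only one of the 4 genes tested that was called (log2 interaction −0.86, SE 0.25, adjusted p = 0.0237), beside 12.1% of all genes called with a positive and 14.0% with a negative interaction. MEF2C was called higher after NSM alone, and its value of −0.38 between DSF+NSM and DSF was not called. Its call was lost without DMSO replicate 1 (−0.82, adjusted p = 0.0603) or 2 (−0.86, 0.0526), DSF replicate 1 (−0.79, 0.0649) or DSF+NSM replicate 2 (−0.72, 0.0648). JMJD1C was at −0.85 (SE 0.41, adjusted p = 0.149) and CDK6 at −0.37 (SE 0.23, adjusted p = 0.272), and without NSM replicate 3 they were at −0.44 and −0.16. AKAP1 was at −1.09 and MEX3A at 0.17 (SE 0.81), without a test. The sign for MEX3A turned without NSM replicate 1, DSF+NSM replicate 1 or DSF+NSM replicate 2 (−0.01, −0.15 and −0.37), and it was 1.04 without DSF+NSM replicate 3.

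NSM and DSF libraries were also compared with each other. The difference itself uses neither DMSO nor DSF+NSM libraries, but the estimate of spread, and so each adjusted p, uses both. Of the 6 genes, 4 were called, beside 21.0% of all genes higher and 23.4% lower in NSM. CDK6 was higher in NSM by 0.64 (SE 0.16, adjusted p = 0.00748), JMJD1C by 1.11 (SE 0.29, adjusted p = 0.00883) and MEF2C by 0.51 (SE 0.18, adjusted p = 0.0340). AKAP1 was lower in NSM (−1.04, SE 0.22, adjusted p = 0.00250). Without NSM replicate 3 the JMJD1C difference was 0.69 (adjusted p = 0.00289). MEX3A was at −1.23 (SE 0.57, adjusted p = 0.0974) and was called without DSF+NSM replicate 3 (adjusted p = 0.00503). MEF2C was not called without DSF replicate 2 (0.48, adjusted p = 0.0968) or 3 (0.47, 0.0995) or without NSM replicate 3 (0.31, 0.0538). With NSM and DSF libraries alone in the fit, MEF2C (adjusted p = 0.0992) was lost and MEX3A (adjusted p = 0.0294) was called.

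FLT3 was high in the same libraries as PAX5, not in all libraries of any group. In NSM replicate 2 and DSF+NSM replicate 1, where FLT3 was at 164 and 530, PAX5, a transcription factor of B cell commitment, was at 161 and 471, against 1.29 to 15.5 in the other 10 libraries. CD79A, a part of the B cell receptor, was at 33.5 and 92.0 against 11.0 to 36.7 in the other 10, so that it stood out in DSF+NSM replicate 1 alone. MS4A1 was at 0 in all 12. PROM1, a progenitor surface protein and MLL-fusion target, was at 59.4 and 176, with 0 to 1.08 elsewhere, and LAMP5, also a target, at 12.5 and 29.6 with 0 elsewhere. The summed B lymphoid markers ran from 26.9 to 29.5 with DMSO and from 28.2 to 42.2 with DSF. They were 33.1, 194 and 19.0 with NSM, and 563, 52.1 and 17.7 with both drugs. The part of other cells or reads in these 2 libraries was not tested. Without both libraries FLT3 was at −1.41 after NSM (adjusted p = 0.116) and −0.43 after DSF+NSM (adjusted p = 0.632). With the libraries weighted by their spread, FLT3 was at 3.61 after NSM (adjusted p = 0.00789). In bulk RNA, fewer cells of a type and less RNA per cell cannot be told apart.

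**Figure D3:**
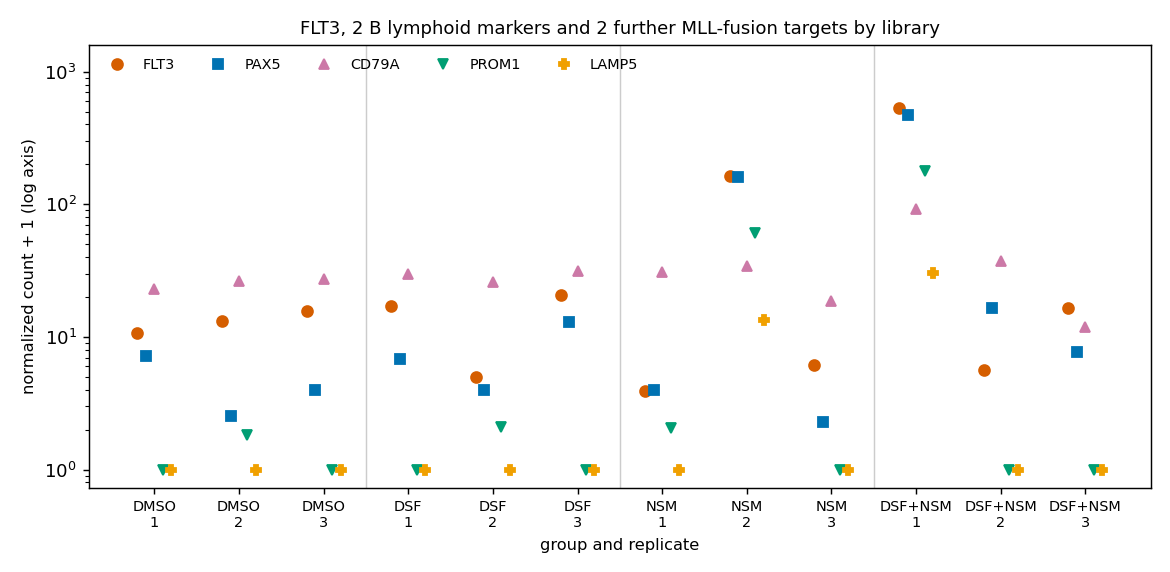
Normalized counts plus 1 (log axis) of FLT3, the B lymphoid markers PAX5 and CD79A, and the MLL-fusion targets PROM1 and LAMP5 in each of the 12 libraries. FLT3 and PAX5 stand together at 164 and 161 in NSM replicate 2 and at 530 and 471 in DSF+NSM replicate 1.

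The paralogs were set beside the members. CDK4, which shares the D-type cyclins with CDK6, fell after NSM (log2 fold change −0.83, adjusted p = 0.00834, and −0.51 without NSM replicate 3, adjusted p = 0.00219), was not called with only the groups compared (adjusted p = 0.0521), and was at −0.38 after DSF+NSM (adjusted p = 0.178). The other MEF2 genes rose after NSM and, unlike MEF2C, were also called higher after DSF+NSM. MEF2D was at 493 ± 22.3 in DMSO cells and at 1143 ± 101, 2477 ± 384 and 2011 ± 115 after DSF, NSM and both drugs (SD, n = 3 each), called at log2 fold changes of 1.21, 2.32 and 2.03. MEF2A (1.02 and 0.81) and MEF2B (1.54 and 1.88) were called after NSM and DSF+NSM, but at equal sums MEF2A was at 0.03 (adjusted p = 0.910) after DSF+NSM. Of the JMJD1C paralogs, KDM3A rose by 0.68 after NSM (adjusted p = 0.00287) and by 0.48 after DSF+NSM (adjusted p = 0.0182, but −0.30 with all libraries at equal sums), and KDM3B was at −0.28 after DSF+NSM (adjusted p = 0.0491). Without DMSO replicate 1 or 2 or DSF+NSM replicate 3 the KDM3A call after DSF+NSM was lost (adjusted p up to 0.0688). The KDM3B call was lost without any library other than NSM replicate 3 (adjusted p up to 0.178).

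Other anchoring proteins, set beside AKAP1, and the paralogs of MEX3A went in both directions. Of the anchoring proteins, AKAP11 (−0.80, adjusted p = 0.0230) and AKAP8 (−0.31, adjusted p = 0.0332) fell after DSF+NSM, AKAP10 was at 0.08 (adjusted p = 0.691, −0.70 at equal sums), and none of these 3 was called after NSM. MEX3D fell from 280 ± 9.10 in DMSO to 84.4 ± 15.8 in NSM, called at −1.73, and was at 733 ± 216 in DSF+NSM, called at 1.34 (SD, n = 3 each). MEX3B rose after DSF+NSM (10.3 ± 5.75 in DMSO, 75.9 ± 25.7 in DSF+NSM, log2 fold change 2.86, adjusted p = 0.000309) and was not called after DSF (0.23) or NSM (−0.33), and MEX3C rose after NSM (1.66) and DSF+NSM (0.84). After DSF+NSM MEX3C was at 0.06 with equal sums (adjusted p = 0.854), and was not called without DSF+NSM replicate 3 (adjusted p = 0.0510). AKAP11 was not called without DMSO replicate 2 or 3 or DSF+NSM replicate 1 or 2 (adjusted p up to 0.0894). AKAP8 was not called without any DMSO or DSF+NSM library or DSF replicate 1 (adjusted p up to 0.0971). CSF1R, a receptor kinase of the FLT3 family, fell after NSM (−1.77, adjusted p = 0.000497) and was at −0.73 after DSF+NSM (adjusted p = 0.0639).

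**Figure D4:**
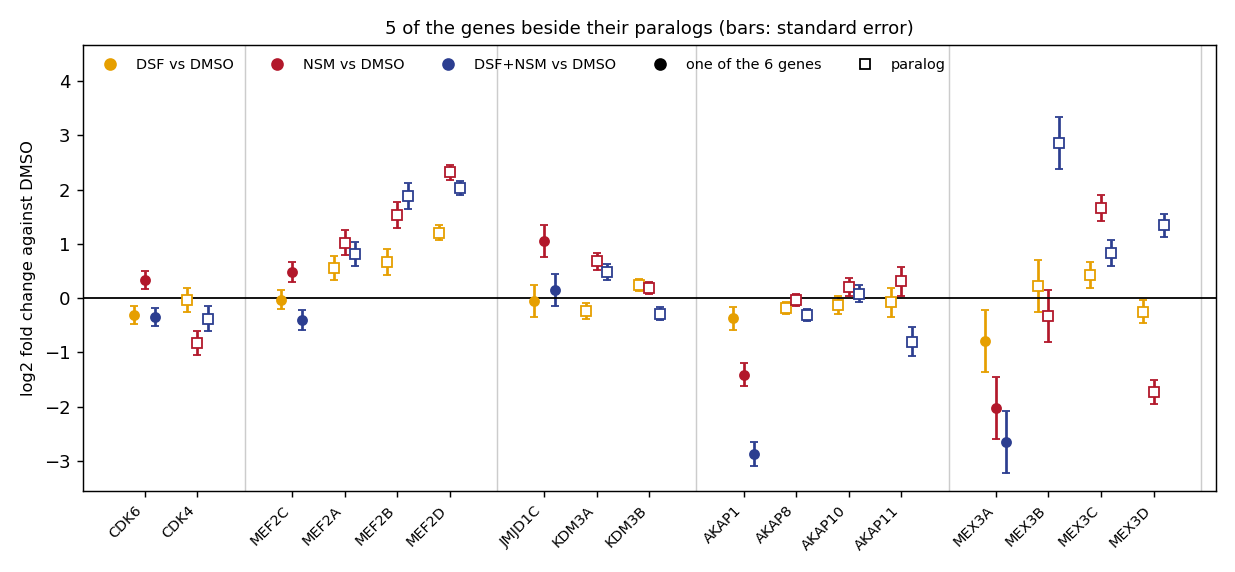
Log2 fold changes against DMSO of 5 of the genes (filled circles) and their paralogs (open squares) after DSF, NSM and DSF+NSM, with standard errors as bars. For AKAP1 the open squares are other anchoring proteins, not paralogs. MEF2A, MEF2B and MEF2D lie above 0 where MEF2C is at −0.40 after DSF+NSM, and MEX3B at 2.86 and MEX3D at 1.34 lie above 0 where MEX3A is at −2.65.

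The known partners of each gene, in lists chosen with earlier results of these data known, were counted in the comparison of DSF+NSM with DMSO. In this comparison 28.3% of all genes tested were called higher and 24.5% lower, with a median of 0.03. Of 13 CDK6 partners tested, 3 rose and 5 fell (median −0.30). The cell cycle inhibitors CDKN1A (log2 fold change 3.24) and CDKN2D (2.94) rose, and the pocket protein RBL1 (−2.26) and the cyclin CCND2 (−1.64) fell. Of 15 genes of FLT3 signaling 4 rose and 0 fell (median 0.28), with GAB2, an adaptor, at 2.22, the kinase PIM1 at 1.69, the ubiquitin ligase CBLB at 1.19 and the ligand FLT3LG at 0.99. Without NSM replicate 3 the counts of this list were 7 and 3, and with only the groups compared 6 and 3. In these fits 9137 and 8598 of the 13502 genes tested were called. At equal sums CBLB (0.41, adjusted p = 0.0996) and FLT3LG (0.22, adjusted p = 0.521) were not called, and FLT3LG was also lost without DMSO replicate 2 or DSF+NSM replicate 1 or 2 (adjusted p up to 0.0699). Of 14 MEF2C relatives, regulators and targets 8 rose and 2 fell (median 0.77), led by JUN (5.56), KLF2 (3.76), NR4A1 (3.47) and the histone deacetylase HDAC5 (1.81), all of which also rose after each drug alone, though after DSF the NR4A1 call was lost without DSF replicate 1 or 2 and the HDAC5 call without DSF replicate 2 (adjusted p up to 0.0607 and 0.0630).

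The next 3 lists are from the same comparison, again beside 28.3% of all genes called higher and 24.5% lower. Of 14 JMJD1C partners 4 rose and 7 fell (median −0.31), with TCF12 at 0.97, the methyltransferase EHMT1 at −0.86, RUNX1 at −0.79 and the demethylase KDM1A at −0.74. Without DSF+NSM replicate 3 the counts were 2 and 5. RUNX1 was not called without DSF+NSM replicate 2 or 3 (adjusted p up to 0.0561), nor TCF12 at equal sums (0.18, adjusted p = 0.536). Of 18 AKAP1 partners 1 rose and 5 fell (median −0.10), and the counts were 1 and 2 without NSM replicate 2 and DSF+NSM replicate 1 together, or without DMSO replicate 2 or 3 or DSF+NSM replicate 1 or 2 alone. They were 5 and 6 without NSM replicate 3, and also with only the groups compared. AKAP8L rose (1.76), and PRKAR1B (−1.10) and PRKACB (−0.86), subunits of protein kinase A, and AKAP13 (−0.92) fell, the PRKACB call being lost without any DMSO, DSF or DSF+NSM library (adjusted p up to 0.125). Of 12 RNA-binding relatives and partners of MEX3A 5 rose and 2 fell (median −0.02), and without NSM replicate 2 and DSF+NSM replicate 1 the counts were 3 and 2. LIN28B (−2.69), which blocks let-7 maturation, and the mRNA stabilizer ELAVL1 (−0.49) fell, and MSI2 (0.40) and CNOT1 (0.33) rose, though at equal sums both were lower (−0.38 and −0.45). The MSI2 call was lost without DMSO replicate 1 or 3 or DSF+NSM replicate 1 or 2, and the CNOT1 call without DMSO replicate 1 or 2 or any DSF or DSF+NSM library (adjusted p up to 0.112 and 0.191).

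The other MLL-fusion targets, written from general knowledge with earlier results of these data known, were counted without HOX genes and MEIS1. Among the 20 tested, 1 rose and 10 fell after DSF+NSM (median −0.68), beside the 28.3% and 24.5% of all genes. Of these ADCY9 was at −1.67, GFI1, a transcriptional repressor, at −1.35, and NAMPT, an enzyme of NAD synthesis, at 2.78. After DSF 1 rose and 0 fell (median −0.26), beside 11.9% and 5.95% of all genes, and the counts were 1 and 5 without NSM replicate 3 and 2 and 10 with DMSO and DSF libraries alone in the fit. In these fits 5551 and 7289 of the 13502 genes tested were called. After NSM 7 rose and 2 fell (median 0.18), beside 25.4% and 23.7%. The sign of that median turned without NSM replicate 3 (6 and 4, median −0.13) and at equal sums (6 and 5, median −0.08). At equal sums 16.4% of all genes were called higher and 33.4% lower after NSM. Against NSM, 0 were higher and 13 lower in DSF+NSM (median −0.93), beside 20.3% and 18.3%, and without NSM replicate 3 the median was −0.59. With these groups alone in the fit, 7 were lower. The interaction was positive for 0 and negative for 7 (median −0.71), beside 12.1% and 14.0%, and its median was −0.33 without NSM replicate 3.

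The genes whose log2 values followed each member most closely over the 12 libraries were found by Pearson's r, which here describes 4 groups that share their libraries. For CDK6 they were GPR126 (r = 0.981), CNOT8 (0.977) and TCF4 (0.972), for MEF2C PDCD4 (0.959), ATE1 (0.954) and OSBPL1A (0.952), and for JMJD1C TAB2 (0.986), BEND6 (0.983) and RNF13 (0.982). For AKAP1 they were ALDH5A1 (0.986), MYD88 (0.985) and DEPDC1B (0.984), and for MEX3A they included LOC102724023 (0.963) and HOTTIP (0.954). FLT3 was closest to PAX5 (0.898), but without NSM replicates 2 and 3 and DSF+NSM replicate 1, which left 9 libraries, this r was 0.142. Among the members themselves r was 0.900 for CDK6 and MEF2C, 0.874 for CDK6 and JMJD1C, 0.811 for MEF2C and JMJD1C, and 0.808 for AKAP1 and MEX3A. Over the 9 libraries these were 0.735, 0.633, 0.387 and 0.813, and r with the genes named for CDK6, MEF2C, JMJD1C, AKAP1 and MEX3A ran from 0.906 to 0.992. AKAP1 and MEX3A were both chosen for a lower level in DSF+NSM than in DMSO. That choice favours a positive r between them, also over the 9 libraries, which still hold both groups.

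The direction of some changes depended on how libraries were scaled, as their sums differed. With every library scaled to the same sum, the median over all genes after DSF+NSM moved from a log2 fold change of 0.03 to −0.74. Of all genes tested, 11.4% were then called higher and 56.2% lower after DSF+NSM. The share of all called genes that were higher then went from 53.6% to 16.8% for DSF+NSM, from 51.7% to 33.0% for NSM and from 66.6% to 49.2% for DSF. It went from 50.3% to 11.9% against DSF, from 52.5% to 17.9% against NSM, from 46.3% to 19.1% for the interaction, and from 47.3% to 31.8% for NSM against DSF. CDK6 was then at −1.14 (adjusted p = 8.53e-05) and MEF2C at −1.19 (adjusted p = 0.000104), so both were called lower, and JMJD1C turned to −0.64 (adjusted p = 0.0763). Relative to that median JMJD1C stayed near the middle of all genes. AKAP1 (−3.65) and MEX3A (−3.37) lay far below it, which is a description, since both were chosen for their fall in this comparison. Of the lists, the FLT3 signaling genes turned from 4 higher and 0 lower to 2 and 10, the MEF2C group from 8 and 2 to 6 and 4, and the MEX3A group from 5 and 2 to 2 and 8, while 15 of the 20 other MLL-fusion targets were lower in place of 10. These list counts stand beside the 11.4% and 56.2% of all genes at equal sums. Rescaling by the median of ratios moved the median of all genes after DSF+NSM to 0.01.

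**Figure D5:**
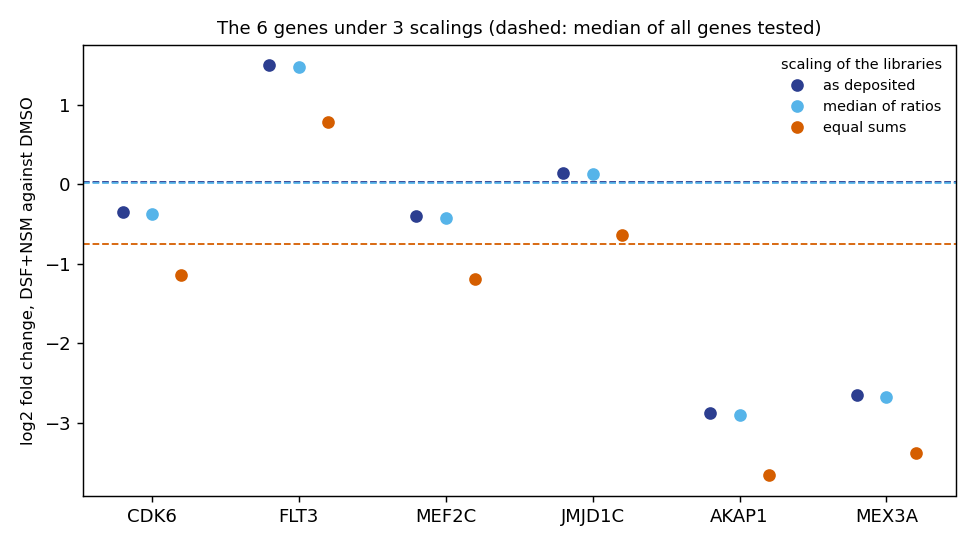
Log2 fold changes of the 6 genes in DSF+NSM against DMSO with values as deposited, after rescaling by the median of ratios, and with all libraries at equal sums. Dashed lines mark the median of all genes tested, at 0.03 as deposited and −0.74 with equal sums. JMJD1C changes from 0.15 to −0.64, and AKAP1 and MEX3A, chosen for their fall in this comparison, are the lowest under each scaling.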

How the data were processed

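RNA-seq was available for 12 libraries of SHI-1 cells. According to the supplement, poly(A) RNA was sequenced on a NextSeq, and reads were trimmed and quantified with STAR and Salmon against GRCh38 before DESeq2, whereas the submitters' processing notes list bcl2fastq 2.19, Trimmomatic, Bowtie2, Picard, featureCounts, DESeq2 and hg38. Each table the authors deposited holds, as signal, normalized counts of 1 library, scaled over 24 libraries, of which 12 are used here. In each library 30.4% to 31.0% of values above 0 were a whole number of its smallest step (tolerance 0.001 step), which was too few to recover reads for a count model. The read numbers given for FLT3 and MEX3A are values divided by that step, and cover counting error only.

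Genes reaching 10 in 3 or more libraries (13502 of 14866) were tested on log2(value + 1) in 7 comparisons. The test was limma 3.58.1 (R 4.3.3) with a mean-variance trend and robust moderation, fitted once to the 4 group means of the 12 libraries. Adjustment was by Benjamini-Hochberg over all genes tested, and genes were called under 0.05. The step was tested on simulated data. The members, the lists of partners and targets and the rule for named genes were chosen with earlier results of these data known. The members, HOX genes and MEIS1 were left out of all lists. Named are the members, their paralogs (for AKAP1, other anchoring proteins), up to 4 genes per list with the largest called change in DSF+NSM against DMSO and a mean of at least 50, and the 3 genes per member with the highest correlation. PROM1 and LAMP5 are named outside this rule, after their values were seen. A B lymphoid marker and 2 genes that this rule names are not reported here, and the marker is left out of the summed levels. Annotation came from GENCODE 44 (GRCh38), promoter windows from RefSeq, and tables and figures were made with Python 3.11.15, numpy 2.4.6, pandas 2.3.3 and matplotlib 3.10.9. Replicate numbers are those of the labels. Of 18 pairs of libraries with the same number 2 had correlated deviations above 0.1, and no block was used in the main test.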

Additional observations from a re-analysis of the deposited data

Results flagged for a closer look

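MEF2C was flagged because the effect of NSM differed between cells without and with DSF (log2 interaction −0.86, SE 0.25, limma adjusted p = 0.0237). All 3 NSM libraries lay above all 3 DMSO libraries, and all 3 DSF+NSM libraries below all 3 DSF libraries. The call was lost in 4 of the 12 fits that left out a library, as given above.

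The summed B lymphoid markers, which enter no comparison, exceeded the highest DMSO library (29.5) by over 1.5 times in NSM replicate 2 (194), DSF+NSM replicate 1 (563) and DSF+NSM replicate 2 (52.1). FLT3 was at 164, 530 and 4.63 in these libraries, so the last of them had no higher FLT3. The origin of these reads was not tested.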

How the results depend on the processing

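The number of genes called among those tested kept within 1.5 times its main value under rescaling by the median of ratios, both other pseudocounts and both other filters. With a replicate block the counts were 0 (DSF), 4 (NSM), 0 (DSF+NSM), 0 (DSF+NSM against DSF), 3 (DSF+NSM against NSM), 1 (interaction) and 4 (NSM against DSF), and no call changed. Deviations of libraries with the same number had correlations of −0.064 to 0.278, the highest between NSM replicate 3 and DSF+NSM replicate 3. With 3 libraries per group, this check cannot tell whether the same number stands for the same experiment. With only the groups compared, the counts became 3 for DSF (main 0), 2 for NSM (main 4), 2 for DSF+NSM (main 0), 1 against DSF (main 0) and 1 against NSM (main 3). All genes called in these fits numbered 7289, 5079, 8598, 7348 and 2473. With library weights, whose estimation stopped short of its convergence tolerance, the counts among those tested became 3 for DSF, 2 for DSF+NSM, 1 against DSF and 2 for the interaction (main 1), and with equal sums 2 for DSF+NSM, 2 against DSF and 3 for the interaction. Without single libraries the counts ranged from 0 to 1 for DSF, 3 to 4 for NSM, 0 to 2 for DSF+NSM, 0 to 1 against DSF, 2 to 3 against NSM, 0 to 1 for the interaction and 3 to 5 for NSM against DSF.

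Signs turned for FLT3 without NSM replicate 2 and DSF+NSM replicate 1 together (an alternative chosen after seeing the data): −1.41 for NSM, −0.43 for DSF+NSM, −0.32 against DSF and −1.30 for NSM against DSF. They turned for FLT3 with library weights (−1.55 against NSM, −1.44 for the interaction) and a pseudocount of 10 (0.0039 for DSF), for MEF2C after DSF with library weights (0.0048), for JMJD1C with equal sums (−0.64 for DSF+NSM, −0.49 against DSF) and for the MEX3A interaction with equal sums (−0.18). Over single libraries left out, FLT3 ran from −0.49 to 0.53 for DSF, −1.41 to 1.29 for NSM, −0.43 to 2.85 for DSF+NSM, −0.32 to 2.96 against DSF, −0.71 to 2.90 against NSM, −0.61 to 3.01 for the interaction and −1.30 to 1.39 for NSM against DSF. MEF2C ran from −0.096 to 0.013 and JMJD1C from −0.13 to 0.030 for DSF, JMJD1C from −0.020 to 0.34 for DSF+NSM, CDK6 from −0.13 to 0.072 against DSF, and MEX3A from −1.17 to 0.24 against NSM and −0.37 to 1.04 for the interaction. The causes were not tested.

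Counts over all genes called, which set the background shares, ran over all settings from 911 to 8171 for DSF (main 2405), 5079 to 11107 for NSM (6635), 5980 to 10122 for DSF+NSM (7125), 4656 to 9120 against DSF (5818), 2473 to 9782 against NSM (5212), 2302 to 8933 for the interaction (3527) and 3970 to 10369 for NSM against DSF (5991). FLT3 and MEX3A rest on few reads, so their differences are imprecise. The correlations over 9 libraries, and the counts by direction of each list without single libraries, were added after seeing the data.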

Other observations

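The larger and the smaller target set of the study's supplement hold AKAP1 and CDK6, and the larger one MEX3A. Both sets were also counted, without these genes and without HOX genes and MEIS1. After DSF+NSM, when 28.3% of all genes were called higher and 24.5% lower, 8 genes rose and 25 fell among 52 tested of the larger set (median log2 fold change −0.51), and 6 rose and 18 fell among 30 tested of the smaller one (median −0.68). After DSF (all genes 11.9% higher, 5.95% lower) 1 rose and 8 fell in the larger set and 0 and 7 in the smaller. These counts were 6 and 14, and 2 and 11, without NSM replicate 3, and 10 and 21, and 2 and 17, with only the groups compared. In these fits 5551 and 7289 of the 13502 genes tested were called. In the larger set the counts were 0 and 3 without DSF replicate 1, and 1 and 3 without DSF replicate 2 or any DMSO library, and in the smaller set 0 and 4 without DSF replicate 2. After NSM (25.4% higher, 23.7% lower) 6 rose and 18 fell in the larger set and 5 and 10 in the smaller. With all libraries at equal sums, 0 rose and 41 fell in the larger set after DSF+NSM, and 0 and 24 in the smaller, when 11.4% of all genes were called higher and 56.2% lower. MYC, a transcription factor of cell growth, went from 6987 ± 307 in DMSO to 409 ± 166 in DSF+NSM (SD, n = 3 each), at a log2 fold change of −4.17. FBXO5, an inhibitor of the anaphase-promoting complex, was at −2.44, PARP1, an enzyme of DNA repair, at −2.03, the lactate transporter SLC16A1 at −1.67, IRAK1BP1 at −2.10 (−1.21 without DSF+NSM replicate 3) and the nucleoside transporter SLC29A1 at −1.70, all called by limma.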
